A study of Homo sapiens with 27 samples.

Results

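PFDN1 encodes a subunit of prefoldin, and its mRNA was examined here together with that of the other prefoldin and prefoldin-like subunits. The 8 genes PFDN1, PFDN2, PFDN4, PFDN5, PFDN6, VBP1, UXT and PDRG1 were taken by their symbols from count files that list 55882 gene symbols. PFDN1 was chosen by its measured level in one MMP2 shRNA line, which was 48.1% to 53.6% of the control level at the 3 stages, so its values in that line against any other are given as a description and were not tested. The other 7 genes entered by family membership.

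Poly(A) RNA was sequenced from U2OS cells, a human osteosarcoma line, in 3 lines that the paper describes as stable. MMP2sh1 (label 23) and MMP2sh2 (label 26) each carried a short hairpin RNA against MMP2 in the pLKO.1 lentiviral vector. The control libraries are labelled WT, and the paper describes the control line as carrying pLKO.1 too. By that description all the lines had been transduced and selected with puromycin, which the WT label alone does not show. If the WT label were literal, differences from control could not be told apart from transduction and selection. RNA was taken at day −2 from subconfluent cells, at day 0 from confluent cells and at day +2 from overconfluent cells, with 3 libraries of independent cultures in each of the 9 groups. Each hairpin was carried by 1 line, so the effect of a hairpin and of its line cannot be told apart. The sources used here do not say whether a line was a pool or a clone. The MMP2sh1 and MMP2sh2 comparisons share their control libraries.

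Prefoldin is a cytosolic chaperone whose tentacle-like arms hold newly made actin and tubulin chains and pass them to the TRiC chaperonin, the ring-shaped complex in which they fold. It is built from the alpha-type subunits VBP1 (also called PFDN3) and PFDN5 and the beta-type subunits PFDN1, PFDN2, PFDN4 and PFDN6. UXT and PDRG1 belong to a related prefoldin-like complex that shares PFDN2 and PFDN6 and works with the R2TP complex and HSP90 in the assembly of RNA polymerases and other large machines.

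Counts on genes totalled 33580129 to 59374327 per library, and the members held between 855 and 6601 counts in every library, so all 8 passed the filter on low counts in every comparison. MMP2, the targeted gene, had log2 fold changes against control of −2.53, −2.47 and −2.34 in MMP2sh1 and −0.70, −1.06 and −0.82 in MMP2sh2 at days −2, 0 and +2, and was called in each of these 6 comparisons. Of the markers of mesenchymal and osteoblast lineage cells, VIM (678 to 840 CPM), COL1A1 (1004 to 1486 CPM), SPARC (1182 to 2074 CPM) and RUNX2 (30.0 to 63.7 CPM) were expressed in all 27 libraries. ALPL was low, at 0.397 to 6.98 CPM, and COL1A2 was nearly absent, at no more than 0.683 CPM. Markers of leukocytes (PTPRC, at most 1.44 CPM, and CD3E, at most 0.0242 CPM) and epithelium (EPCAM, 3.11 to 6.73 CPM, and CDH1, at most 2.54 CPM) were low.

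PFDN1 lies on chromosome 5 of GRCh37, from 139624620 to 139682698 on the minus strand, and its canonical transcript has 4 exons. In control cells its level in CPM (counts scaled to a common library size with TMM factors) was 93.5, 94.4 and 93.0 in the 3 libraries of day −2, 59.0, 60.4 and 63.4 in those of day 0, and 45.5, 41.4 and 44 in those of day +2. In MMP2sh1 the levels were 48.9, 43.5 and 42.8 CPM at day −2, 32.1, 30.6 and 28.9 CPM at day 0, and 23.8, 21.9 and 24.4 CPM at day +2. In MMP2sh2 they were 90.1, 91.7 and 85.3 CPM at day −2, 72.1, 72.6 and 70.5 CPM at day 0, and 43.0, 45.1 and 50.6 CPM at day +2. At each day the 3 MMP2sh1 libraries were thus below every control and every MMP2sh2 library, and within each line the levels of successive days did not overlap. These are levels in bulk RNA, in which fewer cells with the transcript and less of it per cell cannot be told apart.

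**Figure D1:**
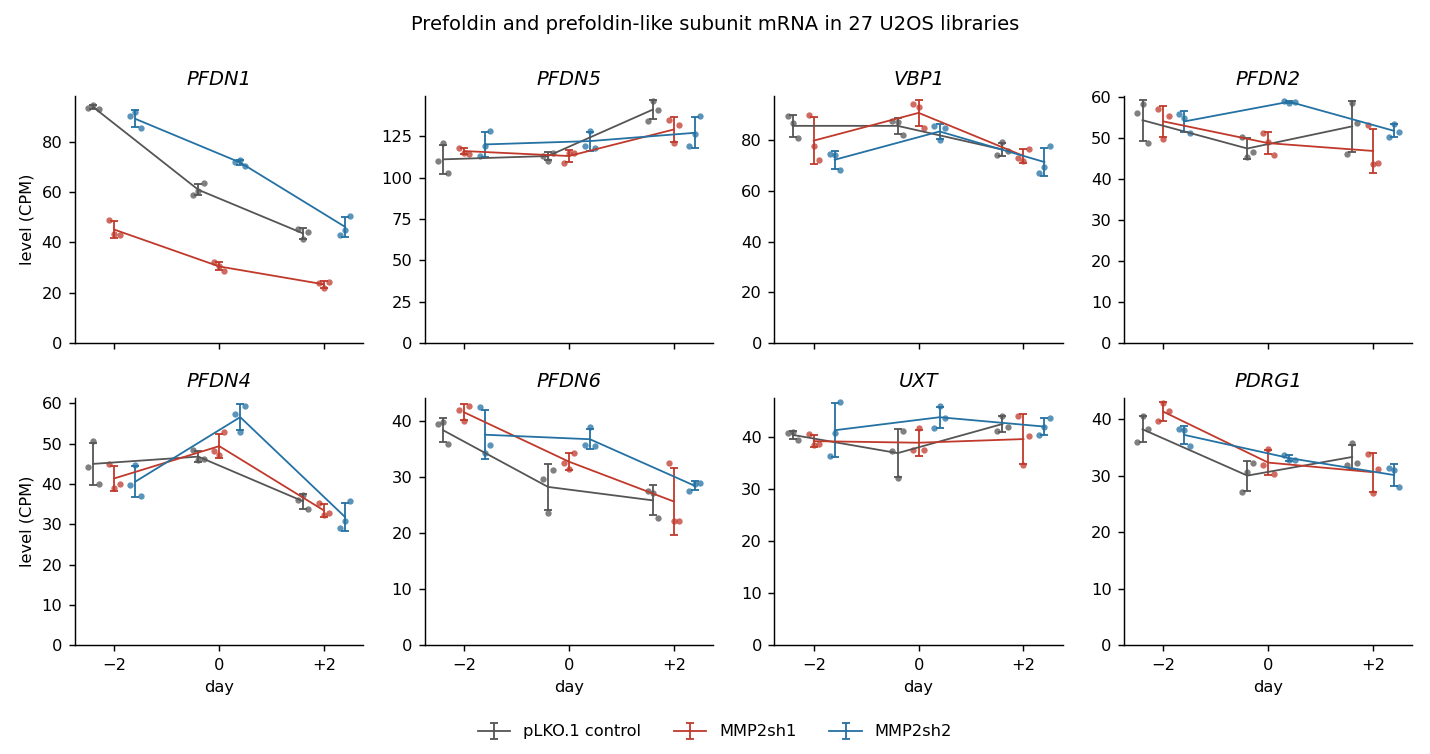
Level in CPM (vertical axes, from 0) of the 8 members by day of culture (horizontal axes) in the pLKO.1 control, MMP2sh1 and MMP2sh2 lines. Points are single libraries, and lines with bars join the means ± SD of 3 libraries. The MMP2sh1 libraries of PFDN1 sit between 21.9 and 48.9 CPM, below the other lines at each day, while the lines lie close together for the other members.

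Ordered by mean level, PFDN1 was highest in control cells at day −2 (93.6 ± 0.715 CPM, SD, n = 3), followed by MMP2sh2 at day −2 (89.0 ± 3.34), MMP2sh2 at day 0 (71.7 ± 1.08) and control at day 0 (60.9 ± 2.24). MMP2sh2 at day +2 (46.2 ± 3.92), MMP2sh1 at day −2 (45.1 ± 3.33) and control at day +2 (43.6 ± 2.04) came next, and the libraries of these neighbouring groups overlapped. Subconfluent MMP2sh1 cells therefore held about as much PFDN1 mRNA, relative to all mRNA, as overconfluent cells of the other lines. MMP2sh1 at day 0 (30.5 ± 1.59) and at day +2 (23.4 ± 1.34) were lowest.

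PFDN1 in MMP2sh1 was at 48.1%, 50.1% and 53.6% of the mean control level at days −2, 0 and +2, which are log2 fold changes of −1.06 (standard error 0.06), −1.0 (0.06) and −0.90 (0.08). Against MMP2sh2 the log2 fold changes were −0.98 (standard error 0.07), −1.21 (0.06) and −0.99 (0.08). The values against control are those that chose PFDN1. Those against MMP2sh2 use the same MMP2sh1 libraries, and neither set was tested. With each library left out in turn, the values against the control stayed between −1.12 and −1.02 at day −2, −1.04 and −0.95 at day 0, and −0.94 and −0.86 at day +2. The place of PFDN1 among other genes by these values is a description too, since the values against control chose it. Of all genes tested in MMP2sh1 against control, 250 of 18878 had a lower log2 fold change than PFDN1 at day −2. At day 0 it was 397 of 19536 and at day +2 476 of 19294. Among the 8159 genes with a mean of 20 CPM or more, 5 had a lower log2 fold change than PFDN1 in MMP2sh1 at day −2, 11 at day 0 and 15 at day +2. The 5 at day −2, named after their values were seen, were MMP2 (−2.53), the collagen gene COL3A1 (−1.79), the protease inhibitor A2M (−1.33), the noncoding RNA MIAT (−1.23) and the endoplasmic reticulum dehydrogenase gene H6PD (−1.08).

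MMP2sh2 did not have this reduction. Its PFDN1 level was 95.1%, 118% and 106% of control at days −2, 0 and +2. The log2 fold change was −0.08 at day −2 (standard error 0.06, adjusted p = 0.45, edgeR quasi-likelihood test with Benjamini-Hochberg adjustment over all genes), 0.22 at day 0 (standard error 0.06, adjusted p = 0.0054) and 0.08 at day +2 (standard error 0.07, adjusted p = 0.62). PFDN1 was thus higher in confluent MMP2sh2 cells than in confluent control cells, and its libraries (70.5 to 72.6 CPM) lay above the control libraries (59.0 to 63.4 CPM). It passed the test at this day with each of the 6 libraries left out.

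The summed level of the partner subunits in MMP2sh1 stayed near that of control. PFDN2, PFDN4, PFDN5, PFDN6 and VBP1 together had 334 ± 23.7 CPM in control and 332 ± 16.7 in MMP2sh1 at day −2 (SD, n = 3), 321 ± 8.37 and 335 ± 1.04 at day 0, and 331 ± 15.5 and 309 ± 19.3 at day +2. Per 100 counts of these 5 subunits in the same library, a ratio that needs no scaling between libraries, PFDN1 had 28.1 ± 1.83 counts in control cells at day −2 and 13.6 ± 0.347 in MMP2sh1. At day 0 it had 19.0 ± 0.959 and 9.13 ± 0.454, and at day +2 it had 13.2 ± 1.22 and 7.58 ± 0.354. MMP2sh2 had 27.4 ± 0.730, 20.1 ± 0.267 and 14.9 ± 0.353 at the 3 days. By this ratio, which was added after the data were seen, MMP2sh1 was at 48.3%, 48.0% and 57.3% of control and MMP2sh2 at 97.7%, 106% and 113%.

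**Figure D2:**
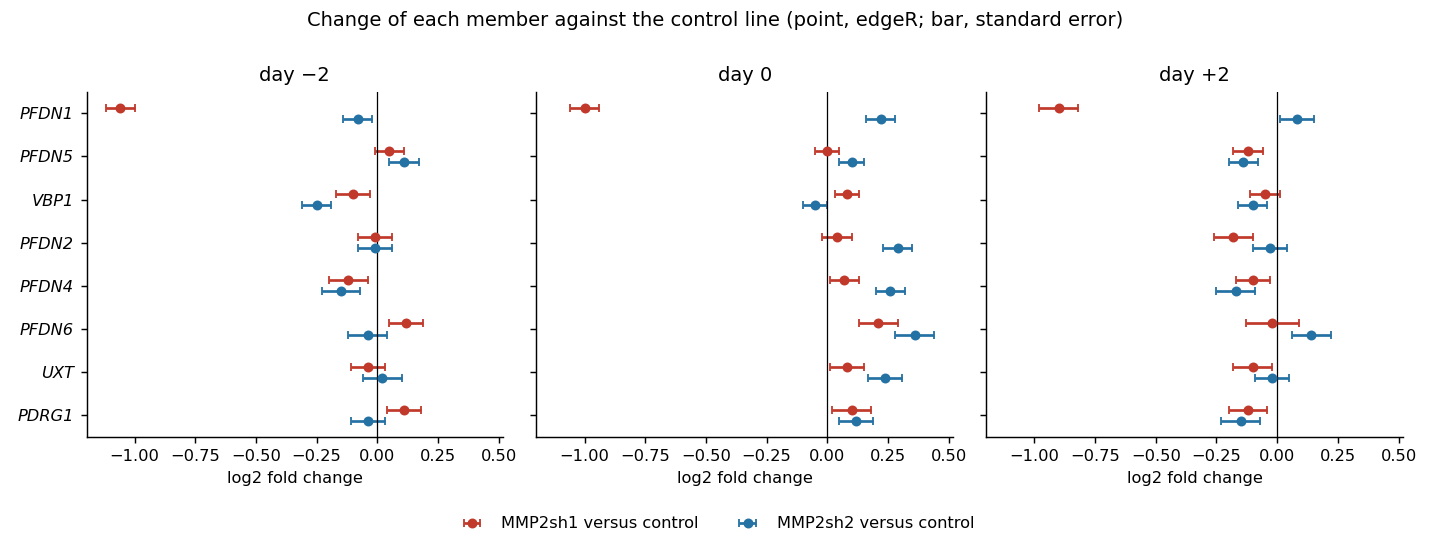
Log2 fold change against the control line (horizontal axes, point) with its standard error (bar) for the 8 members in MMP2sh1 and MMP2sh2, in 1 panel per day. PFDN1 in MMP2sh1 lies between −1.06 and −0.90, whereas the other members lie between −0.25 and 0.36 in both lines.

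None of the other 7 members passed the test in MMP2sh1 against control. The count was 0 of 7 at day −2, where 11.6% of 18878 genes tested were called at an adjusted p under 0.05 by edgeR, 0 of 7 at day 0 (16.8% of 19536 genes) and 0 of 7 at day +2 (14.8% of 19294 genes). At an unadjusted p under 0.05 the counts were 0, 1 and 2, and DESeq2 called 0 on each day. The median log2 fold change of the 7 members was −0.01, 0.08 and −0.10, against −0.000, −0.001 and −0.002 over all genes tested. The single values ranged from −0.12 to 0.12 at day −2, from 0.00 to 0.21 at day 0 and from −0.18 to −0.02 at day +2, all far smaller in size than that of PFDN1.

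PFDN6, a beta-type subunit whose gene is on chromosome 6 from 33257079 to 33266178 on the plus strand, came closest to the threshold. Its level was 29.6, 23.6 and 31.3 CPM in confluent control cells and 32.5, 31.4 and 34.3 CPM in confluent MMP2sh1 cells, so that every MMP2sh1 library lay above the control libraries by a narrow margin. The log2 fold change was 0.21 (standard error 0.08, adjusted p = 0.071). It passed the test without control replicate 3 (0.29, adjusted p = 0.022). In 2 more cases a member passed only with 1 library left out. VBP1 at day −2 had a log2 fold change of −0.20 (adjusted p = 0.041) without MMP2sh1 replicate 1, and PFDN2 at day +2 had −0.27 (adjusted p = 0.012) without MMP2sh1 replicate 1 and −0.26 (adjusted p = 0.039) without control replicate 1.

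In MMP2sh2, 5 of 8 members were higher than in control at day 0 and none was lower. Over all 19063 genes tested at this day 12.9% were called, 7.07% as higher. PFDN1, PFDN2, PFDN4, PFDN6 and UXT were the members called higher. The median log2 fold change of the 8 members was 0.23, against −0.003 over all genes tested, and DESeq2 also called 5. PFDN5 (0.10, adjusted p = 0.19), PDRG1 (0.12, adjusted p = 0.32) and VBP1 (−0.05, adjusted p = 0.60) did not pass.

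PFDN2, a beta-type subunit common to prefoldin and the prefoldin-like complex, is encoded on chromosome 1 from 161070346 to 161087845 on the minus strand. Its level was 50.4, 45.5 and 46.7 CPM in confluent control cells and 59.1, 58.7 and 58.9 CPM in confluent MMP2sh2 cells. All the MMP2sh2 libraries lay above the control libraries, with a log2 fold change of 0.29 (standard error 0.06, adjusted p = 0.00075). PFDN6 was at 35.7, 38.8 and 35.5 CPM in confluent MMP2sh2 cells, above the control values given for this day, with a log2 fold change of 0.36 (standard error 0.08, adjusted p = 0.0019).

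PFDN4, another beta-type subunit, lies on chromosome 20 from 52824626 to 52844591 on the plus strand. It was at 48.4, 45.9 and 46.2 CPM in confluent control cells and at 57.4, 53.0 and 59.3 CPM in confluent MMP2sh2 cells, again without overlap (log2 fold change 0.26, standard error 0.06, adjusted p = 0.0037). UXT, an alpha-type subunit of the prefoldin-like complex, is on chromosome X from 47511195 to 47518579 on the minus strand. Its levels were 37.4, 32.1 and 41.1 CPM in control and 41.8, 46.0 and 43.7 CPM in MMP2sh2, which were separate by a narrow margin. The log2 fold change of 0.24 (standard error 0.07, adjusted p = 0.028) rested on few libraries. It was 0.25 (adjusted p = 0.066) without control replicate 1, 0.15 (adjusted p = 0.24) without control replicate 2, 0.20 (adjusted p = 0.15) without MMP2sh2 replicate 2 and 0.23 (adjusted p = 0.062) without MMP2sh2 replicate 3.

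At the other days fewer members of MMP2sh2 passed. At day −2, 1 of 8 was called, where 11% of 18845 genes were, 6.33% as lower. This was VBP1, the alpha-type subunit on chromosome X from 154425284 to 154468122 on the plus strand. VBP1 had 89.1, 86.4 and 80.8 CPM in subconfluent control cells and 74.4, 74.0 and 67.9 CPM in subconfluent MMP2sh2 cells. It was lower than in control by 0.25 on the log2 scale (standard error 0.06, adjusted p = 0.010), but did not pass without control replicate 1 (−0.21, adjusted p = 0.10). At day +2 edgeR called 0 of 8 members, where 6.32% of 19339 genes were called, with 2 at an unadjusted p under 0.05 and 0 by DESeq2. Without MMP2sh2 replicate 3, PFDN4 (−0.25, adjusted p = 0.048) and PFDN5 (−0.20, adjusted p = 0.019) passed at this day.

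Set against each other directly, MMP2sh1 and MMP2sh2 differed in 0 of 7 members other than PFDN1 at day −2 (10.7% of genes called) and in 0 of 7 at day +2 (7.86%). Neither day had a member at an unadjusted p under 0.05 or a call by DESeq2. At day +2, PFDN2 (−0.24, adjusted p = 0.038) and PFDN6 (−0.36, adjusted p = 0.011) passed without MMP2sh1 replicate 1. At day 0, 2 of 7 were called, both lower in MMP2sh1, where 18.5% of genes were called, 9.62% as lower. PFDN2 was at 51.3, 49.0 and 46.0 CPM in confluent MMP2sh1 cells and 59.1, 58.7 and 58.9 CPM in MMP2sh2 (log2 fold change −0.26, standard error 0.06, adjusted p = 0.0017). PFDN4 was at 48.2, 47.2 and 52.9 CPM in MMP2sh1 and did not overlap by a narrow margin with MMP2sh2 (log2 fold change −0.18, standard error 0.06, adjusted p = 0.034). The PFDN4 difference did not pass without replicate 1 or 3 of MMP2sh2 (−0.17 and −0.15, adjusted p = 0.11 and 0.16) or without replicate 1 or 2 of MMP2sh1 (−0.17 and −0.15, adjusted p = 0.12 and 0.16). VBP1 passed as higher in MMP2sh1 (0.18, adjusted p = 0.018) without MMP2sh1 replicate 3.

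PFDN1 also fell as cells filled the dish, in every line. From day −2 to day +2 its log2 fold change was −1.10 in control cells (standard error 0.06, adjusted p = 3.4e-15), −0.95 in MMP2sh1 (0.08, adjusted p = 1e-09) and −0.94 in MMP2sh2 (0.07, adjusted p = 8.8e-13). At day +2 its level was 46.6%, 51.8% and 51.9% of that at day −2. In control cells 2.81% of the genes at 20 CPM or more fell further. The fall had begun by day 0, when the log2 fold change from day −2 was −0.61 in control (standard error 0.05, adjusted p = 3e-10), −0.56 in MMP2sh1 (0.08, adjusted p = 6.4e-06) and −0.32 in MMP2sh2 (0.06, adjusted p = 0.00016). Between days 0 and +2 PFDN1 changed by −0.46 (standard error 0.06, adjusted p = 3e-07), −0.38 (0.08, adjusted p = 0.00030) and −0.61 (0.07, adjusted p = 8.2e-09) in the same order. None of these 9 calls was lost with a library left out.

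**Figure D3:**
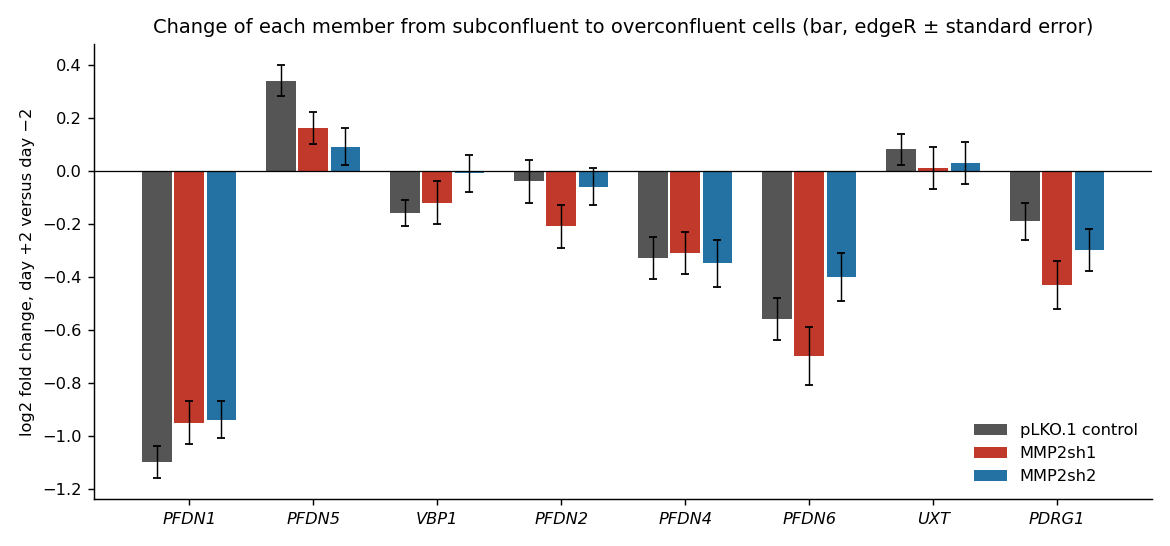
Log2 fold change from day −2 to day +2 (vertical axis, bars from 0) with its standard error for the 8 members in the control, MMP2sh1 and MMP2sh2 lines. PFDN1 has the most negative bar in each line, from −1.10 to −0.94, PFDN6 and PFDN4 are negative in all lines, and PFDN5 is positive.

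A difference between lines in the PFDN1 change over the whole expansion did not pass the test where it was made. Differences between lines in the PFDN1 steps to and from day 0 were not tested. The interaction of line and day, which compares the day −2 to day +2 changes, was 0.15 for MMP2sh2 against control (standard error 0.09, adjusted p = 0.39) and 0.15 for MMP2sh1 (standard error 0.10, no test). None of the other members passed this test in either line by edgeR. The counts were 0 of 7 for MMP2sh1 (7.4% of 20548 genes called, 2 members at an unadjusted p under 0.05, 0 by DESeq2) and 0 of 8 for MMP2sh2 (4.98% of 20653 genes, 1 at an unadjusted p under 0.05, 0 by DESeq2). The single values ranged from −0.23 to 0.05 in MMP2sh1 and from −0.26 to 0.17 in MMP2sh2. PFDN5 in MMP2sh2 passed at −0.31 without control replicate 2 of day −2 (adjusted p = 0.045) or without MMP2sh2 replicate 3 of day +2 (adjusted p = 0.041).

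Several members changed over the expansion, as did most genes. In control cells 6 of 8 were called between day −2 and day +2, in MMP2sh1 6 of 8 and in MMP2sh2 4 of 8, where 56.8%, 54.9% and 54.7% of all genes tested were called. The median log2 fold change of the members was −0.18, −0.26 and −0.18, against 0.028, 0.037 and 0.048 over all genes tested. The members that fell numbered 5, 5 and 4, where 28.6%, 27.7% and 27.1% of genes fell, and PFDN1, PFDN4, PFDN6 and PDRG1 fell in all 3 lines. In control and MMP2sh1 1 member rose, PFDN5, where 28.1% and 27.3% of genes rose.

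PFDN6 followed PFDN1 in the size of its fall. It went from 39.4, 39.7 and 35.8 CPM at day −2 to 27.5, 27.2 and 22.7 CPM at day +2 in control cells, without overlap (log2 fold change −0.56, standard error 0.08, adjusted p = 6.5e-07). The log2 fold change was −0.70 in MMP2sh1 (standard error 0.11, adjusted p = 8.5e-06) and −0.40 in MMP2sh2 (0.09, adjusted p = 0.00023). In MMP2sh1 at day +2 replicate 1 of PFDN6 stood at 32.5 CPM, above the 22.1 CPM of both other libraries.

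PFDN4 had its highest mean level at confluence in each line. In control cells it had means of 45.0, 46.8 and 35.7 CPM at days −2, 0 and +2. In MMP2sh2 it was at 39.8, 44.8 and 37.1 CPM at day −2 and at 57.4, 53.0 and 59.3 CPM at day 0, and then fell to 29.0, 30.7 and 35.7 CPM at day +2. The rise to day 0 was 0.47 on the log2 scale in MMP2sh2 (standard error 0.07, adjusted p = 2.8e-05) and 0.26 in MMP2sh1 (0.07, adjusted p = 0.0080). In control cells the value was 0.06 (standard error 0.07, adjusted p = 0.52), and the difference between lines in this step was not tested. The MMP2sh1 rise did not pass without replicate 2 of day −2 (0.22, adjusted p = 0.053) or replicate 3 of day 0 (0.21, adjusted p = 0.064). Over the whole expansion PFDN4 fell in each line, with log2 fold changes of −0.33 (standard error 0.08, adjusted p = 0.00050) in control, −0.31 (0.08, adjusted p = 0.0021) in MMP2sh1 and −0.35 (0.09, adjusted p = 0.0011) in MMP2sh2.

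PDRG1, the beta-type subunit of the prefoldin-like complex, is on chromosome 20 from 30532140 to 30539849 on the minus strand. Its level in control cells was 35.9, 40.5 and 38.2 CPM at day −2, 27.1, 30.7 and 32.2 CPM at day 0 and 31.8, 35.8 and 32.3 CPM at day +2. Its mean was thus lowest at confluence, but the libraries of days 0 and +2 overlapped. The change between those days did not pass the test (0.17, standard error 0.08, adjusted p = 0.075). In both shRNA lines PDRG1 had its lowest mean at day +2. From day −2 to day +2 it changed by −0.19 in control (standard error 0.07, adjusted p = 0.024), −0.43 in MMP2sh1 (0.09, adjusted p = 0.00014) and −0.30 in MMP2sh2 (0.08, adjusted p = 0.0020). The control value did not pass without replicate 2 of day −2 (−0.15, adjusted p = 0.13) or without replicate 1 or 3 of day +2 (−0.16 and −0.17, adjusted p = 0.089 and 0.080).

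PFDN5 was the member that rose. This alpha-type subunit, also known as a binding partner of MYC, is encoded on chromosome 12 from 53689075 to 53693236 on the plus strand. In control cells PFDN5 was at 110, 121 and 103 CPM at day −2, at 113, 110 and 115 CPM at day 0 and at 134, 146 and 141 CPM at day +2, with no overlap between the first and the last day. The log2 fold change was 0.34 in control (standard error 0.06, adjusted p = 7.7e-06), 0.16 in MMP2sh1 (0.06, adjusted p = 0.037) and 0.09 in MMP2sh2 (0.07, adjusted p = 0.27). The MMP2sh1 call did not hold without replicate 2 or 3 of day −2 (0.15 and 0.14, adjusted p = 0.11 for both) or without replicate 1 or 3 of day +2 (0.12 and 0.14, adjusted p = 0.13 and 0.11), and it had an adjusted p of 0.058 with the replicate number as a block.

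VBP1, PFDN2 and UXT had small values over the expansion. VBP1 passed in control cells (−0.16, standard error 0.05, adjusted p = 0.013), though not without control replicate 1 of day −2 (−0.13, adjusted p = 0.088). It had −0.12 in MMP2sh1 (adjusted p = 0.20) and −0.01 in MMP2sh2 (adjusted p = 0.89), and in MMP2sh1 it passed without replicate 3 of day −2 (−0.19, adjusted p = 0.045). PFDN2 passed in MMP2sh1 at −0.21 (standard error 0.08, adjusted p = 0.039), but not without replicate 1 or 3 of day −2 (−0.17 and −0.20, adjusted p = 0.11 and 0.080) or replicate 2 or 3 of day +2 (−0.16 for both, adjusted p = 0.18 and 0.17). UXT had log2 fold changes of 0.08, 0.01 and 0.03 in control, MMP2sh1 and MMP2sh2, with adjusted p values of 0.31, 0.91 and 0.75.

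Split at confluence, the first step (day −2 to day 0) lowered 4 of 8 members in control cells and raised none, where 35.5% of genes were called, 19.1% as lower. They were PFDN1, PFDN6 (−0.44), PDRG1 (−0.34) and PFDN2 (−0.19), the last of which did not pass without replicate 1 or 2 of day −2 or replicate 2 or 3 of day 0 (adjusted p = 0.12, 0.17, 0.096 and 0.077). In MMP2sh1 this step raised 2 of 8 and lowered 3, where 32.7% of genes were called, 15% as higher and 17.7% as lower. In MMP2sh2 it raised 2 of 8 and lowered 1, where 30.3% were called, 13.9% as higher and 16.4% as lower. VBP1 was one of the members raised in both, by 0.19 (adjusted p = 0.043) in MMP2sh1 and 0.20 (adjusted p = 0.013) in MMP2sh2, but the first did not pass without replicate 2 or 3 of day −2 or replicate 1 or 2 of day 0 (adjusted p = 0.14, 0.22, 0.17 and 0.16) or with DESeq2 (adjusted p = 0.052), and the second not without replicate 1 or 3 of day 0 (adjusted p = 0.082 and 0.068). The MMP2sh1 count was 3 in all without replicate 2 of day −2. UXT in control (−0.21, adjusted p = 0.037) passed without replicate 3 of day 0, and PDRG1 in MMP2sh2 (−0.21, adjusted p = 0.031) without replicate 3 of day −2.

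The second step (day 0 to day +2) called 6 of 8 members in control, 3 in each direction, where 41.4% of genes were called, 21.3% as higher and 20.1% as lower. PFDN5 rose by 0.34 (standard error 0.05, adjusted p = 1.1e-06) in this step, and PFDN4 fell by 0.37 on the log2 scale (0.07, adjusted p = 2.6e-05). The other higher calls were UXT (0.23, adjusted p = 0.015) and PFDN2 (0.18, adjusted p = 0.046), and VBP1 was lower (−0.15, adjusted p = 0.031). PFDN2 did not pass with DESeq2 (adjusted p = 0.10), median-of-ratios scaling (0.054), the replicate block (0.062), edgeR on all 27 libraries (0.12) or without replicate 2 or 3 of day 0 (0.15 and 0.12) or of day +2 (0.34 and 0.12). UXT did not pass without replicate 2 of day 0 (0.15) or of day +2 (0.064), and VBP1 not without a filter (0.061), without replicate 1 or 2 of day 0 (0.11 for both) or replicate 1 or 3 of day +2 (0.097 and 0.088). PDRG1 passed as higher (0.22, adjusted p = 0.040) without replicate 3 of day 0. In MMP2sh1 the second step called 5 of 8, 1 higher and 4 lower, where 46% were called, 23.1% as higher and 23% as lower. In MMP2sh2 it called 5 of 8, all lower, where 45.5% were called, 23% as lower. PFDN4 changed by −0.55 (adjusted p = 4e-07) and −0.81 (adjusted p = 6.2e-10) in these lines, the most negative value among the members in each. The control count was 3 without replicate 2 of day 0, and the MMP2sh2 count was 3 without replicate 1 of day +2. PFDN6 in MMP2sh1 (−0.35, adjusted p = 0.010) did not pass without replicate 2 or 3 of day +2 (0.098 and 0.077). In MMP2sh2, PFDN2 (−0.16, adjusted p = 0.032) did not pass with edgeR on all 27 libraries (0.051), without any of the day 0 libraries (0.052 to 0.080) or without replicate 1 of day +2 (0.13), and VBP1 (−0.20, adjusted p = 0.0096) not without that last library (0.088).

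Levels of different members can be compared only per length, and the order then depended on the transcript model. Per kilobase of all annotated exons, control cells at day −2 had 87.6 ± 8.0 CPM of PFDN2, 43.9 ± 2.18 of VBP1, 43.5 ± 0.332 of PFDN1, 32.0 ± 0.663 of UXT, 27.3 ± 2.12 of PFDN5, 25.8 ± 3.04 of PFDN4, 19.5 ± 1.17 of PDRG1 and 13.0 ± 0.735 of PFDN6 (SD, n = 3). VBP1 and PFDN1 did not differ beyond their spread in this order. Per kilobase of the canonical transcript, PFDN5 was highest at 187 ± 14.5 CPM and PFDN6 was at 52.1 ± 2.96 CPM. Their canonical transcripts have 596 and 734 bases, against 4078 and 2953 bases of exon in all. PFDN1 had rank 3 of 8 on both scales in control cells at day −2, and in MMP2sh1 at that day it had rank 7 per kilobase of all exons and rank 6 per kilobase of the canonical transcript.

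Counts of some members are uncertain because reads were counted without strand and reads on exons of several genes were discarded. PFDN1 shares 39 bases of exon with CYSTM1 on the opposite strand, PFDN6 shares 724 with RGL2, PDRG1 shares 664 with TTLL9 and UXT shares 348 with UXT-AS1 in GENCODE on GRCh37. PFDN5 shares 475 with the antisense gene MYG1-AS1 and 1048 with an unnamed long noncoding RNA gene, for which no counts were used here. The processed pseudogenes PFDN1P1 and PFDN1P2 are named after PFDN1 and are not among the symbols counted here. Their sequences were not compared with that of PFDN1.

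The genes next to PFDN1 on chromosome 5 were not called lower with it. Of the 5 nearest tested protein-coding genes on each side, edgeR called 0 of 10 lower in any of the 6 comparisons with control, where 6.14%, 8.58% and 7.11% of all genes were called lower in MMP2sh1 and 6.33%, 5.81% and 3.43% in MMP2sh2. With 10 genes, a count of 0 is near this background. PSD2, NRG2, IGIP, ANKHD1 and ANKHD1-EIF4EBP3 had median counts of only 43 to 110. Their standard errors of 0.21 to 0.55 mean that a modest change in them could be missed. ANKHD1 and ANKHD1-EIF4EBP3 also overlap each other, so they are not independent neighbours. At an unadjusted p under 0.05 the lower counts were 1, 0 and 1 in MMP2sh1 and 1, 0 and 0 in MMP2sh2 at days −2, 0 and +2, and DESeq2 called 0 lower in each. In MMP2sh1, 2, 1 and 2 of the 10 were called higher, where 5.42%, 8.26% and 7.68% of all genes were, and in MMP2sh2 0, 1 and 0, where 4.71%, 7.07% and 2.89% were, with 0 and 1 higher at an unadjusted p under 0.05 and 0 by DESeq2 at days −2 and +2.

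CYSTM1, a small membrane protein gene that overlaps PFDN1, lies from 139554741 to 139661637 on the plus strand. Its log2 fold changes in MMP2sh1 were 0.41 (standard error 0.11, adjusted p = 0.013), −0.09 (0.11, adjusted p = 0.66) and 0.32 (0.11, adjusted p = 0.035). The day −2 value did not pass without control replicate 3 (0.34, adjusted p = 0.084) or MMP2sh1 replicate 3 (0.31, adjusted p = 0.097), nor did the day +2 value without replicate 2 or 3 of control (adjusted p = 0.087 and 0.18) or of MMP2sh1 (adjusted p = 0.15 and 0.077). The day +2 value also did not pass when no filter was applied (0.056), under the replicate block (0.068) or with edgeR on all 27 libraries (0.051). HBEGF, which encodes a heparin-binding growth factor of the EGF family, lies 29.7 kb beyond PFDN1, from 139712428 to 139726188 on the minus strand. It had 0.31 (standard error 0.09, adjusted p = 0.028), 0.51 (0.12, adjusted p = 0.0029) and 0.51 (0.14, adjusted p = 0.011) in MMP2sh1. Its call at day 0 held with each library left out, the one at day −2 was lost without any 1 of the 6 libraries (adjusted p = 0.051 to 0.14) and with edgeR on all 27 libraries (0.080), and the one at day +2 was lost without replicate 2 or 3 of control (adjusted p = 0.054 and 0.068). The neighbour called in MMP2sh2 at day 0 was SRA1, a steroid receptor RNA activator gene (0.25, standard error 0.08, adjusted p = 0.026), and this call was lost without replicate 2 or 3 of control (adjusted p = 0.12 and 0.056) or replicate 1 or 2 of MMP2sh2 (adjusted p = 0.16 and 0.10).

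**Figure D4:**
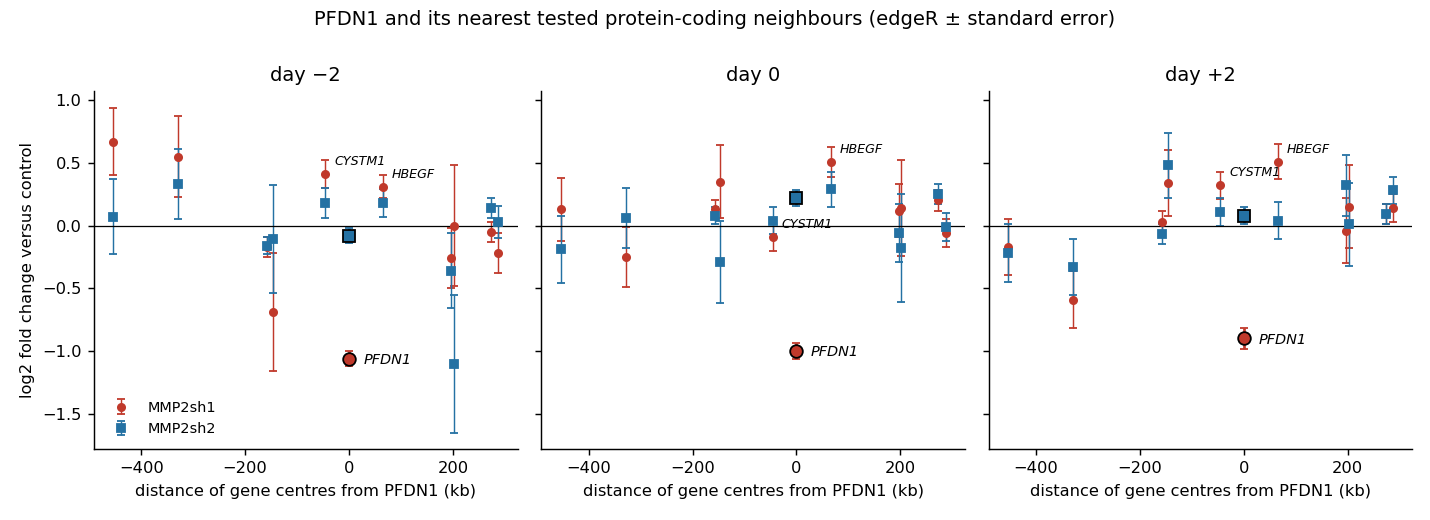
Log2 fold change against control with its standard error (vertical axis) of PFDN1 and its 10 neighbours by the distance of gene centres in kb (horizontal axis), in 1 panel per day. Circles are MMP2sh1 and squares MMP2sh2, and PFDN1 at 0 kb is outlined. In MMP2sh1 PFDN1 lies between −1.06 and −0.90, while CYSTM1 lies between −0.09 and 0.41 and HBEGF between 0.31 and 0.51.

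Over the 27 libraries, and among 15135 genes with a mean of 1 CPM or more, the 5 profiles most like PFDN1 included those of PLEKHB2 (Pearson's r = 0.986 on log2 CPM), PHB (0.985), SUMO3 (0.945) and TMCO3 (0.944). These are an endosomal membrane protein gene, the gene of the mitochondrial scaffold prohibitin, a ubiquitin-like modifier and a transmembrane protein gene. The 27 points share 9 group means, and the r of the deviations from those means was 0.51, 0.51, 0.36 and −0.05 for these, so the likeness rests mainly on the groups. By Spearman's rho, PLEKHB2 and PHB were again among the first 5, and SUMO3 and TMCO3 were not. The partner subunits came much further down, with r of 0.523 for PFDN6, 0.506 for PFDN2, 0.396 for PFDN4 and for PDRG1, 0.171 for UXT, 0.110 for VBP1 and −0.296 for PFDN5. Within groups the r of VBP1 was 0.64, above those of PLEKHB2 and PHB, that of PFDN4 was 0.41 and those of the other partners were 0.05 to 0.27.

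PLEKHB2 and PHB combined the MMP2sh1 difference with the fall over the expansion, as PFDN1 did. PHB had log2 fold changes of −0.69, −0.85 and −0.74 in MMP2sh1 at days −2, 0 and +2, and of 0.09, 0.11 and −0.00 in MMP2sh2. PLEKHB2 had −0.54, −0.64 and −0.55 in MMP2sh1, and 0.16, 0.16 and 0.02 in MMP2sh2. Over the expansion PHB changed by −0.87, −0.93 and −0.97 and PLEKHB2 by −0.57, −0.59 and −0.72 in control, MMP2sh1 and MMP2sh2. These genes were selected for their likeness to PFDN1, so their values are a description.

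**Figure D5:**
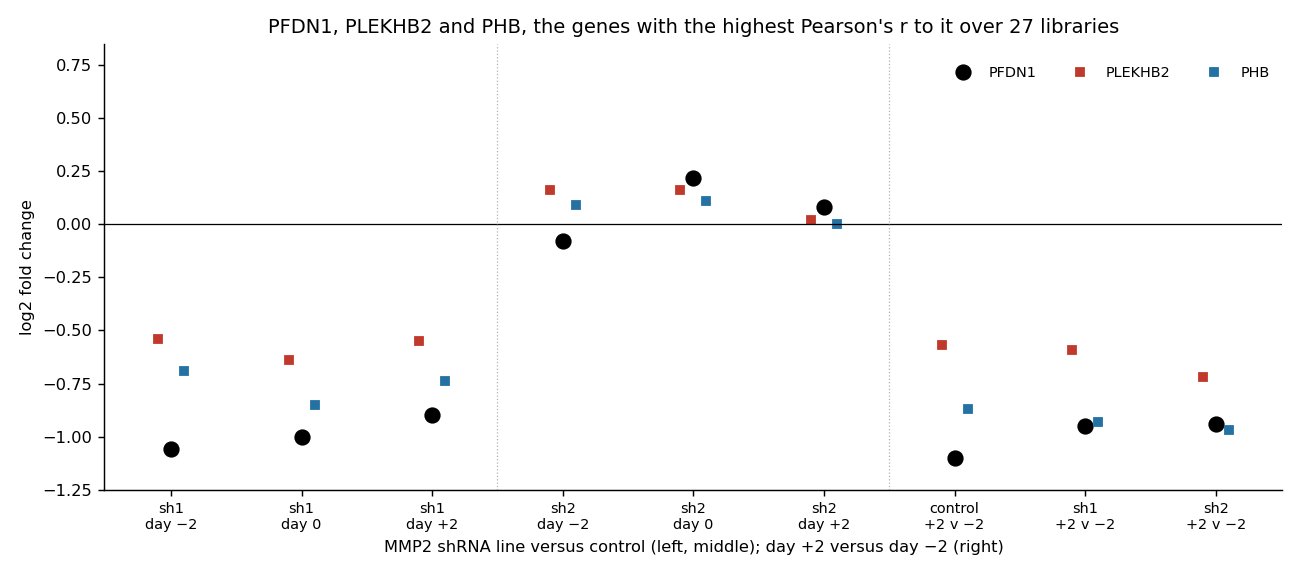
Log2 fold changes (vertical axis) of PFDN1, PLEKHB2 and PHB, the genes with the highest Pearson's r to it, in MMP2sh1 against control (left), in MMP2sh2 against control (middle) and from day −2 to day +2 in each line (right). PLEKHB2 and PHB are below 0 in MMP2sh1 and over the expansion, where PHB is the closer to PFDN1, and between −0.00 and 0.16 in MMP2sh2.

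The TRiC chaperonin, which receives the chains that prefoldin holds, has 8 subunit genes in the list examined (TCP1, CCT2, CCT3, CCT4, CCT5, CCT6A, CCT7 and CCT8). In MMP2sh1 at day 0, 5 of 8 were called higher by small amounts, where 8.26% of all genes were, with all 8 values between 0.03 and 0.16. CCT3 had the value of 0.16 (standard error 0.04, adjusted p = 0.0010). At days −2 and +2 edgeR called 0 of 8 in this line, with 5 and 0 at an unadjusted p under 0.05, all higher, and 2 and 0 by DESeq2. In MMP2sh2, 2 of 8 were lower at day −2, where 6.33% of all genes were, CCT5 (−0.19, 0.05, adjusted p = 0.014) and CCT6A (−0.17, 0.05, adjusted p = 0.025), and CCT5 was lower at day +2 (−0.19, 0.05, adjusted p = 0.022). These calls rested on few libraries. CCT5 and CCT6A at day −2 did not pass without replicate 1 of control (adjusted p = 0.14 and 0.17) or replicate 2 (0.072 and 0.087), CCT6A also not without replicate 1 or 2 of MMP2sh2 (0.067 and 0.061), and CCT5 at day +2 not without replicate 2 or 3 of control (0.22 and 0.059) or replicate 1 or 2 of MMP2sh2 (0.091 and 0.23). All 8 subunits fell from day −2 to day +2 in each line, where 28.6%, 27.7% and 27.1% of all genes fell, with medians of −0.63 in control, −0.76 in MMP2sh1 and −0.55 in MMP2sh2, against −1.10, −0.95 and −0.94 for PFDN1.

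Among 7 genes of the prefoldin-like and R2TP complexes (URI1, RUVBL1, RUVBL2, RPAP3, PIH1D1, WDR92 and POLR2E), MMP2sh1 had 1 higher at day −2 and 2 higher at day 0, and MMP2sh2 had 1 lower at day −2 and 2 higher at day 0. Over all genes, 5.42% and 8.26% were higher in MMP2sh1, and 6.33% lower and 7.07% higher in MMP2sh2, in these comparisons. At day +2 edgeR called 0 of 7 in either line, with 2 and 0 at an unadjusted p under 0.05 and 1 and 0 by DESeq2. RUVBL1, an ATPase of the R2TP complex, was higher than in control at day 0 in MMP2sh1 (0.23, standard error 0.05, adjusted p = 0.0016), a call that held with each library left out. In MMP2sh2 RUVBL1 at day 0 had 0.18 (0.06, adjusted p = 0.023), which did not pass without replicate 1 or 2 of control (adjusted p = 0.12 and 0.13) or of MMP2sh2 (0.090 and 0.13). Its partner ATPase RUVBL2 had 0.16 in MMP2sh2 at day 0 (0.05, adjusted p = 0.020), lost without replicate 1 of control (0.20) or replicate 2 or 3 of MMP2sh2 (0.15 and 0.051), and with edgeR on all 27 libraries (0.063). Its value of 0.18 in MMP2sh1 at day −2 (0.06, adjusted p = 0.042) was lost without replicate 1 or 3 of control (0.17 and 0.25) or any of the MMP2sh1 libraries (0.055 to 0.11). RPAP3, the scaffold of R2TP, was lower in MMP2sh2 at day −2 (−0.26, 0.07, adjusted p = 0.015), lost without replicate 1 or 2 of control (0.078 and 0.069). Of the chaperonin cofactors PDCL, PDCL3 and TXNDC9, PDCL was lower in MMP2sh1 at day −2 (−0.35, 0.09, adjusted p = 0.0084). TXNDC9 was higher in MMP2sh1 at day 0 (0.19, 0.07, adjusted p = 0.045), a call lost without any of the control libraries (0.062 to 0.13), without MMP2sh1 replicate 1 (0.33) and with edgeR on all 27 libraries (0.13).

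Actins and tubulins, the main clients of prefoldin, moved in both directions. Of 14 genes, 1, 1 and 1 were called higher and 2, 4 and 3 lower in MMP2sh1 at days −2, 0 and +2, and 5, 3 and 2 higher and 1, 1 and 1 lower in MMP2sh2. Over all genes, 5.42%, 8.26% and 7.68% were higher and 6.14%, 8.58% and 7.11% lower in MMP2sh1, and 4.71%, 7.07% and 2.89% higher and 6.33%, 5.81% and 3.43% lower in MMP2sh2. TUBA1A, an alpha-tubulin gene, was lower in MMP2sh1 at day −2 (−0.30, standard error 0.06, adjusted p = 0.0015) and day 0 (−0.47, 0.04, adjusted p = 1e-10) and higher at day +2 (0.36, 0.05, adjusted p = 3.7e-06). In MMP2sh2 TUBA1A was also lower at day 0 (−0.42, 0.04, adjusted p = 2.8e-09). ACTG1, the cytoplasmic gamma-actin gene, was higher at day −2 in MMP2sh2 (0.60, 0.05, adjusted p = 1.1e-08) and in MMP2sh1 (0.21, 0.05, adjusted p = 0.0076), and in MMP2sh1 it was lower at day 0 (−0.26, 0.03, adjusted p = 6.4e-08). TUBB6, a beta-tubulin gene, was higher in MMP2sh2 at day −2 (0.28, 0.05, adjusted p = 0.00078) and day 0 (0.24, 0.04, adjusted p = 0.00010). These calls held with each library left out. Others did not, namely TUBA1A in MMP2sh2 at day +2 (0.18, adjusted p = 0.011), lost without replicate 2 or 3 of control (0.067 and 0.094) or replicate 1 of MMP2sh2 (0.071), and TUBB6 in MMP2sh1, where it was lower at day 0 (−0.12, adjusted p = 0.025) and day +2 (−0.16, adjusted p = 0.045). The TUBB6 call at day 0 was lost without replicate 3 of control (0.18) or replicate 2 or 3 of MMP2sh1 (0.13 and 0.088), and that at day +2 without replicate 2 or 3 of control (0.24 and 0.13) or any of the MMP2sh1 libraries (0.060 to 0.10), and under the replicate block (0.11). With edgeR on all 27 libraries the day 0 value had an adjusted p of 0.068. TUBB6 was also called higher in MMP2sh2 at day +2. That call was lost without replicate 1 or 3 of control (0.073 and 0.083) or replicate 1 or 2 of MMP2sh2 (0.064 and 0.083). ACTG1 in MMP2sh1 at day +2 (−0.15, adjusted p = 0.025) was lost without replicate 2 or 3 of control (0.11 and 0.083) or replicate 1 or 2 of MMP2sh1 (0.072 and 0.12), and under the replicate block (0.058). Actin and tubulin genes have near-identical copies, so reads may have been split or discarded between them. Over the expansion 12, 13 and 13 of the 14 fell in control, MMP2sh1 and MMP2sh2, where 28.6%, 27.7% and 27.1% of all genes did, with medians of −0.76, −0.88 and −0.89.

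Of the 6 tubulin folding cofactors (TBCA, TBCB, TBCC, TBCD, TBCE and ARL2), MMP2sh1 had 1 higher at day −2, 1 lower at day 0 and 2 lower at day +2, and MMP2sh2 had 2 higher at day −2 and 1 higher at day 0. The shares of all genes in these comparisons were 5.42% higher, 8.58% lower and 7.11% lower in MMP2sh1, and 4.71% and 7.07% higher in MMP2sh2. TBCD, a beta-tubulin cofactor, was higher in MMP2sh2 at day −2 (0.28, standard error 0.05, adjusted p = 0.00090). TBCB, an alpha-tubulin cofactor, was lower in MMP2sh1 at day +2 (−0.27, 0.07, adjusted p = 0.0054), but not without replicate 3 of control (−0.22, adjusted p = 0.063) or replicate 2 of MMP2sh1 (−0.22, adjusted p = 0.061). ARL2 was called lower in MMP2sh1 at days 0 and +2 and higher in MMP2sh2 at day −2. Each of these ARL2 calls was lost in 4 of the 6 fits with a library left out. The day 0 call was also lost with edgeR on all 27 libraries (adjusted p = 0.079), and that of day +2 under the replicate block (0.055). TBCD, called higher in MMP2sh1 at day −2, was lost in 5 of 6 fits with a library left out and without a filter (0.083). Of 12 other cytosolic chaperones, 4, 4 and 4 were lower and 1, 3 and 0 higher in MMP2sh1 at days −2, 0 and +2. Over all genes 6.14%, 8.58% and 7.11% were lower and 5.42%, 8.26% and 7.68% higher in this line. In MMP2sh2, 5, 0 and 1 of the 12 were lower and 0, 2 and 0 higher. Over all genes 6.33%, 5.81% and 3.43% were lower and 4.71%, 7.07% and 2.89% higher in MMP2sh2. At an unadjusted p under 0.05 the counts of these chaperones were 6, 0 and 6 lower and 1, 2 and 0 higher. DESeq2 called 5, 0 and 1 lower and 1, 2 and 0 higher there. HSP90AB1, the constitutive cytosolic HSP90, was lower in MMP2sh1 at each day (−0.20, −0.16 and −0.27, adjusted p = 0.0082, 0.00011 and 6e-05), although not at day −2 without control replicate 1 (−0.19, adjusted p = 0.066). HSPA1A, an inducible HSP70 gene, was lower there too (−0.30, −0.31 and −0.37, adjusted p = 0.0018, 0.00033 and 0.00023), and its reads cannot be separated with certainty from those of its near-identical copy HSPA1B (−0.28, −0.26 and −0.41). HSPA1B was lower in MMP2sh2 at day +2 as well (−0.36, adjusted p = 0.00020).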

How the data were processed

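RNA was sequenced from 3 stable U2OS lines at 3 days of culture, 27 libraries in all. In the hands of the authors, reads were trimmed (Trim Galore 0.6.0), mapped to hg19 (STAR 2.7.3a), filtered for mapping quality (Samtools) and assigned to genes by their exons, regardless of strand (HTSeq 2.0.0). The version of their gene annotation is not given in the sources used here. The deposited files hold unnormalized counts, 1 value per gene symbol. Summary lines that name no gene (16.8% to 19.1% of each file's total) entered neither library sizes nor tests. Depth was 33580129 to 59374327 counts on genes per library.

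Groups of 3 libraries were compared in fits of those 6 libraries alone with edgeR 4.0.16 in R 4.3.3. TMM scaling, filterByExpr (minimum count 10, minimum total 15) and the quasi-likelihood test were used, and p-values were adjusted by Benjamini-Hochberg over all genes tested. A gene was called when its adjusted p was below 0.05. Interactions used the 12 libraries of a pair of lines at days −2 and +2. The standard error is the size of the log2 fold change divided by the square root of F. Levels are CPM with TMM factors over the 27 libraries. Likeness was Pearson's r of log2 CPM with a prior count of 2.

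The members and gene lists were chosen with earlier results of these data known. PFDN1 was left out of counts in comparisons of MMP2sh1 with another line. Named genes were the members, MMP2, up to 3 genes per list with the largest change among those called in the most of the 6 comparisons with control, the 5 genes most like PFDN1, and those of its 5 nearest tested protein-coding genes on each side that had a call. A result that these rules would name is not reported here.

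Alternatives were DESeq2 1.42.0, median-of-ratios (RLE) scaling, no filter, a minimum of 10 counts per library, a block for the replicate number, edgeR on all 27 libraries, and each library left out in turn. The fits were tested on simulated data. Positions are from GENCODE on GRCh37, the build of hg19. PECAM1, the endothelial marker in the list, was not analysed here.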

Additional observations from a re-analysis of the deposited data

Results flagged for a closer look

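The following genes differed between lines by a test of the difference itself (edgeR's quasi-likelihood test, adjusted p under 0.05). Those other than the members had been named for their calls against control in these same data. The tests reuse those libraries and are not independent support. Groups of 3 libraries are too small for a check of single outlying samples.

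The prefoldin subunits PFDN2 (−0.26) and PFDN4 (−0.18) had lower log2 levels in MMP2sh1 than in MMP2sh2 at day 0. At that day TUBB6 (−0.36), ACTG1 (−0.25), ARL2 (−0.22), TBCD (−0.11), TBCB (−0.25), HSPA1B (−0.29), HSPA1A (−0.42) and HSP90AB1 (−0.13) were also lower in MMP2sh1. At day −2 TUBA1A (−0.39), TUBB6 (−0.20) and ACTG1 (−0.40) were lower in MMP2sh1 than in MMP2sh2. At day +2 TUBB6 (−0.34), ACTG1 (−0.23), ARL2 (−0.27), HSPA1A (−0.24) and HSP90AB1 (−0.15) were lower and TUBA1A (0.18) was higher. Other genes of the same lists were called higher in MMP2sh1 than in MMP2sh2. Among TRiC genes 3 of 8 were higher and 0 lower at both day −2 and day 0. Of 14 actins and tubulins, 1 was higher and 5 lower at day −2, and 3 and 5 at day 0. Of 12 other chaperones, 2 were higher and 0 lower at day −2, and 2 and 3 at day 0. Over all genes 5.01% were higher and 5.69% lower at day −2, and 8.9% and 9.62% at day 0. At day +2, 1 of the 14 actins and tubulins was higher and 3 lower, and 1 of the 12 other chaperones was higher and 2 lower. Among TRiC genes 0 were higher and 0 lower at that day, where 4.59% of all genes were higher and 3.27% lower.

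The log2 change from day −2 to day +2 differed between MMP2sh1 and control by 0.66 for TUBA1A, −0.24 for TUBB6 and −0.36 for ACTG1. Between MMP2sh2 and control it differed by −0.52 for ACTG1. Of the 14 actins and tubulins, 1 was called higher and 3 lower by this test in MMP2sh1, and 0 and 4 in MMP2sh2. Over all genes 4.52% were higher and 2.88% lower in MMP2sh1, and 2.71% and 2.28% in MMP2sh2.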

How the results depend on the processing

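Every log2 fold change of PFDN1 kept its direction and, where tested, its side of the threshold under all alternatives run. Of the recomputed values (PFDN1, the calls of the named genes, the counts of members called and the levels per length), 1483 kept their direction and their side of the threshold or stayed within the spread between replicates, 157 calls of single genes were lost, 35 values moved and none changed direction. The number of members called in MMP2sh1 against control at day 0 was 1 when no filter was applied and 1 under the replicate block, in place of 0, and in MMP2sh1 against MMP2sh2 at day 0 it was 1 with edgeR on all 27 libraries, in place of 2. With each library left out in turn, the counts against control ranged from 0 to 1 in MMP2sh1 at each day, from 0 to 1 in MMP2sh2 at day −2 and from 0 to 2 at day +2. Those of MMP2sh1 against MMP2sh2 ranged from 1 to 3 at day 0 and from 0 to 2 at day +2. The interaction in MMP2sh2 ranged from 0 to 1. The counts of the day comparisons ranged from 3 to 6 in control from day 0 to day +2, from 3 to 5 in MMP2sh1 from day −2 to day 0 and from 3 to 5 in MMP2sh2 from day 0 to day +2. The cause was not tested. PFDN1 in control cells at day −2 had 70.1 CPM per kilobase of the longest transcript, 70.1 of the canonical transcript (added after the data were seen) and 42.2 of all exons without TMM factors. Of the 5 genes most like PFDN1, 3 were shared with the 5 by Spearman's rho.

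Same-numbered libraries of the groups compared shared only a number: the correlation of their deviations from the group means ran from −0.0944 to 0.149 and was not above 0.1 for every number in any comparison. The replicate block changed no count of members by more than 1.5 times other than the one given. The 3 libraries per group and 1 line per hairpin limit every comparison.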
